A study of Mus musculus with 4 samples.

Results

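The genes described here encode amino acid transporters of the plasma membrane, 10 genes chosen by symbol out of the 17559 genes listed in the files. They are *Slc7a5*, *Slc3a2*, *Slc7a1*, *Slc7a6*, *Slc7a11*, *Slc1a4*, *Slc1a5*, *Slc38a1*, *Slc38a2* and *Slc43a1*, and all 10 were found and passed the filter on low counts. Expression was measured by RNA-seq in CD8+ T cells of C57BL/6 mice of the OT-I genotype, a transgenic T cell receptor that recognises an ovalbumin peptide, taken from tissue labelled LN. There were 2 NaBu libraries, from cells exposed to 1 mM NaBu (the usual abbreviation of sodium butyrate, a histone deacetylase inhibitor) for 12 h, and 2 control libraries. Every library came from cells purified by negative selection to above 95%, then stimulated for 2 d in wells coated with antibodies to CD3 at 1 µg/ml and to CD28 at 2 µg/ml, in the presence of IL-2 (10 ng/ml), and rested for 2 d more in IL-2. The cells were therefore activated T cells in both groups, and since the origin of the replicates (culture or animal) is not labelled, every p-value reflects the spread between these samples alone, which may be technical.

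Amino acid transporters let an activated T cell take up the leucine, glutamine, arginine and cystine it needs for growth, and T cell activation is known to raise several of them. *Slc3a2* encodes CD98, a heavy chain that carries light chains such as the *Slc7a5* product LAT1 to the cell surface, where the pair exchanges large neutral amino acids such as leucine for intracellular glutamine. Glutamine itself enters through sodium-dependent carriers of the SLC1 and SLC38 families. The transcription factor ATF4, made when amino acids are short, is known to induce many transporter genes through a short DNA element, the C/EBP-ATF response element (CARE).

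Promoters of members are shown because the genes moved in the same direction and ATF4 is a known regulator of several of them. RefSeq promoter sequences, 250 bases before to 50 after a start site on GRCm38.p6 (the assembly also called mm10), matched 7 of the 10 genes, with 9 promoters. Shown are those of the 4 matched genes with the largest falls among the calls, at the outer start site for *Slc7a1*, 5′ to 3′ on the gene's strand. Capitals mark matches, on either strand, to CARE (TGATGNAA) or to the core of the antioxidant response element (TGACNNNGC), the element bound by NRF2.

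Slc7a11, chr3:50443564-50443863, minus strand: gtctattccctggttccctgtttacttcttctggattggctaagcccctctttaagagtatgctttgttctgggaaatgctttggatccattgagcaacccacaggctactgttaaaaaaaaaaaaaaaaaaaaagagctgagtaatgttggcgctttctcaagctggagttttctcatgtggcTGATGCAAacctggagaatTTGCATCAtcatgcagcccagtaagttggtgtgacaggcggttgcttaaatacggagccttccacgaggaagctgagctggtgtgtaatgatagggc

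Slc7a1, chr5:148399855-148400154, minus strand: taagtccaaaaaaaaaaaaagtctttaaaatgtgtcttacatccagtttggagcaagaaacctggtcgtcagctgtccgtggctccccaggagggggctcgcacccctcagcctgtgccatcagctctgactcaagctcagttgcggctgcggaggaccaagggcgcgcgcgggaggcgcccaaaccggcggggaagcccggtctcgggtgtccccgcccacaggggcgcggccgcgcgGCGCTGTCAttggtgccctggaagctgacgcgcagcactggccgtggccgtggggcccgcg

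Slc38a2, chr15:96699679-96699978, minus strand: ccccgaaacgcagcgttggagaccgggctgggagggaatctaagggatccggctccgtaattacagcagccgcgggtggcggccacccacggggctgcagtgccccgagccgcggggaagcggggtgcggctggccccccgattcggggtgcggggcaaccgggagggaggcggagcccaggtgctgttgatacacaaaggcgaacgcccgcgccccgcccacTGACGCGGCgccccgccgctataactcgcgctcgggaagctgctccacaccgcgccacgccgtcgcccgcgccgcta

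Slc1a4, chr11:20332664-20332963, minus strand: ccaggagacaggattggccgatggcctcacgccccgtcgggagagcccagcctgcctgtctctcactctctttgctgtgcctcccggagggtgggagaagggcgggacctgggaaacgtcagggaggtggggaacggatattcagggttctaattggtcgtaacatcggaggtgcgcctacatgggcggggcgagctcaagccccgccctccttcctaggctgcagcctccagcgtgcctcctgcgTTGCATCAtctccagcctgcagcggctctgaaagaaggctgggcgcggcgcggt

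The *Slc7a11* promoter held a pair of CARE matches on opposite strands, beginning 66 and 47 bases before the start site, and the *Slc1a4* match began 4 bases before it. No CARE match lay in these windows of the other 5 matched genes. An element outside the windows would be missed, and *Slc7a5*, *Slc1a5* and *Slc38a1* had no promoter to search. CARE was present in 3.97% of the 32851 promoters in the table and in 4.51% of their 27025 genes. The antioxidant core, present in 12.4% of promoters and 14% of genes, matched in *Slc7a1*, *Slc38a2*, *Slc43a1* and *Slc7a6*. The E-box CACGTG, bound by MYC and related factors, was present in 7.15% of promoters and 8.09% of genes. It matched only in *Slc43a1* among the 7 genes. The cyclic AMP element TGACGTCA, in 1.79% of promoters and 2.03% of genes, matched in none. The matches are letters in a window, and binding was not measured.

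All 10 transporter genes had lower FPKM (fragments scaled to transcript length and library size) in both NaBu libraries than in both control libraries, and 9 of them fell by edgeR's quasi-likelihood test at an adjusted p of 0.05. The falls were of unequal size. *Slc7a11*, *Slc38a1*, *Slc7a1*, *Slc38a2* and *Slc1a4* fell between 3.56-fold and 1.37-fold, whereas *Slc3a2*, *Slc1a5*, *Slc7a5* and *Slc7a6* fell between 1.18-fold and 1.14-fold. *Slc43a1* did not pass. The background was broad, since 68.6% of the 12943 tested genes were called in either direction, 34.5% higher and 34.1% lower in NaBu. NaBu values lay entirely below the controls in 35.9% of tested genes and entirely above in 48%. The members had a median log2 fold change of -0.46, against 0.005 over all tested genes, whose lower quartile was -0.42. Fold changes and log2 ratios come from the edgeR fit to counts on the TMM scale, unless another setting is named. The FPKM values carry no TMM factors, so the falls they show in these members are smaller. On plain library totals the median of all genes moved to 0.102, and 5 members were called lower, as were 3720 of the 12943 tested genes. There *Slc7a5*, *Slc3a2*, *Slc1a5* and *Slc7a6* no longer passed the test. Without NaBu 1, too, 5 members were called, and without NaBu 2, 6. When a change had to exceed 1.5-fold (edgeR's glmTreat), 3 members were called lower, *Slc7a1*, *Slc38a1* and *Slc7a11*, where 12.1% of all tested genes were.

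**Figure D1:**
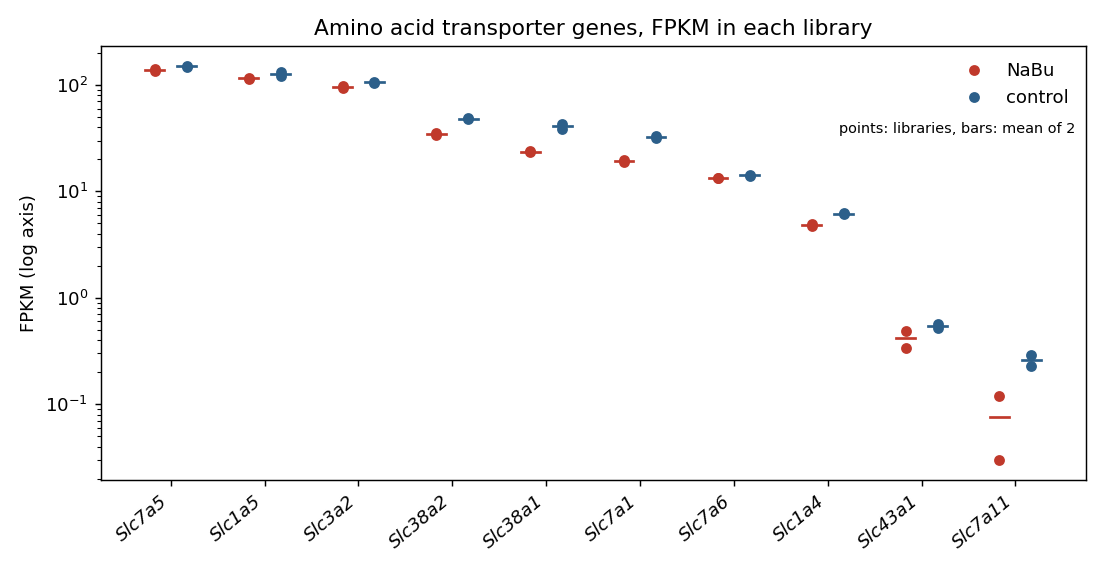
FPKM (log axis) of each transporter gene in the 2 NaBu (red, left) and 2 control (blue, right) libraries, with bars at the mean of 2. Levels ran from *Slc7a5*, at 136 and 139.9 in NaBu and 152 and 148 in control, to *Slc7a11*, at 0.03 and 0.12 in NaBu and 0.23 and 0.29 in control, and in each gene both NaBu points lie below both control points.

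The order of the mean FPKM was the same in NaBu and control cells. From high to low it ran *Slc7a5*, *Slc1a5*, *Slc3a2*, *Slc38a2*, *Slc38a1*, *Slc7a1*, *Slc7a6*, *Slc1a4*, *Slc43a1* and *Slc7a11*. Within each group no pair of neighbours in this order overlapped between libraries, as the plot of FPKM by library shows. *Slc7a5* ranked 459 and *Slc1a5* 579 among all listed genes by mean FPKM, while *Slc43a1* ranked 11963 and *Slc7a11* 13337.

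The leucine exchanger and its heavy chain stayed abundant. *Slc7a5* (mm10 chromosome 8, 121881146 to 121907686), the gene of the leucine and large neutral amino acid exchanger LAT1, had an FPKM of 136 and 139.9 in NaBu cells, against 152 and 148 in control cells. The groups did not overlap, but the step between them was small. On the TMM scale the log2 fold change of *Slc7a5* was -0.21 ± 0.06 (SE; edgeR adjusted p = 0.00957). *Slc3a2* (chromosome 19, 8706882 to 8723369), the gene of the CD98 heavy chain, had 93.0 and 98.7 FPKM in NaBu cells, against 107.5 and 105 in control cells. It too was lower in both NaBu libraries, with a log2 fold change on the TMM scale of -0.24 ± 0.06 (SE; edgeR adjusted p = 0.00508). Both calls were lost on library totals, where the log2 fold changes were -0.12 for *Slc7a5* (edgeR adjusted p = 0.112) and -0.14 for *Slc3a2* (edgeR adjusted p = 0.0574), and without NaBu 1 (edgeR adjusted p = 0.147 and 0.125 in that order). The *Slc7a5* call was also lost without NaBu 2 (edgeR adjusted p = 0.0901).

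Light and heavy chain mRNA stood in nearly the same proportion in both groups. *Slc7a5* FPKM per *Slc3a2* FPKM was 1.46 and 1.42 in NaBu cells, against 1.41 in each control. *Slc7a5* made up 90.6% and 90.9% of the summed FPKM of the 6 listed light chains of CD98 in NaBu cells, against 91.1% and 90.7% in control cells, and these shares overlapped. *Slc7a6* (chromosome 8, 106168219 to 106198714), the gene of y+LAT2, which exchanges arginine or lysine for neutral amino acids, supplied most of the remainder. Its FPKM was 13.5 and 13.3 in NaBu cells, against 14.1 and 14.4 in control cells, a ratio of means of 0.941. On the TMM scale *Slc7a6* fell further, at a log2 fold change of -0.18 ± 0.07 (SE; edgeR adjusted p = 0.031). It was the member whose call was lost most often, in 10 of 16 alternatives, among them library totals (edgeR adjusted p = 0.268), DESeq2 (adjusted p = 0.126), and the omission of NaBu 1 (edgeR adjusted p = 0.162) or of NaBu 2 (edgeR adjusted p = 0.204). The other light chain genes were near silent. *Slc7a7*, encoding y+LAT1, had 0.5 and 0.46 FPKM in NaBu cells, against 0.46 and 0.44 in control cells, and did not pass (edgeR adjusted p = 0.892). *Slc7a8*, encoding LAT2, had 0.19 and 0.09 FPKM in NaBu cells, against 0.02 and 0.03 in control cells, and *Slc7a10* had 0.03 or less in every library. Both were too low to be tested.

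Of the 4 CD98 light chains tested, the cystine carrier had the largest fold change, at a very low level. *Slc7a11* (chromosome 3, 50364936 to 50499087), the gene of xCT, imports cystine in exchange for glutamate and so feeds glutathione synthesis. It had 6.21 and 22.82 expected counts in NaBu cells, against 43.53 and 55.92 in control cells, or 0.03 and 0.12 FPKM against 0.23 and 0.29. The groups did not overlap, although the NaBu libraries differed from each other by more than the controls did. The log2 ratio was -1.83 ± 0.42 (SE; edgeR adjusted p = 0.00285). Its size rested on few reads, being -3.09 without NaBu 2 and -1.17 without NaBu 1. The counts were not whole, so that part of the reads also matched other genes and was divided between them by the authors' estimation.

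The arginine carrier fell clearly. *Slc7a1* (chromosome 5, 148327410 to 148399904), the gene of CAT1, which takes up arginine, lysine and ornithine, had 18.7 and 19.6 FPKM in NaBu cells, against 31.7 and 33.4 in control cells. The gap between the groups was far wider than the spread within either, and the log2 ratio was -0.86 ± 0.06 (SE; edgeR adjusted p = 6.51e-07). The call was kept in all 16 alternatives tried, with log2 fold changes from -0.9 to -0.74. *Slc7a3*, which encodes the related cationic carrier CAT3, fell as well, to 0.71 and 0.84 FPKM in NaBu cells, against 4.91 and 5.38 in control cells, at a log2 ratio of -2.8 ± 0.16 (SE; edgeR adjusted p = 1.01e-07). Of 6 genes that make or use arginine 3 were tested, of which 1 rose and 1 fell, or 2 rose without NaBu 1, control 1 or control 2, and 2 fell without control 2, where more than 3 passed the filter. *Ass1*, which makes arginine from citrulline by way of argininosuccinate, fell 1.64-fold and *Odc1*, the polyamine synthesis enzyme that uses ornithine, rose 1.6-fold. *Arg1*, *Arg2* and *Nos2* were below the filter, with at most 0.57 FPKM.

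**Figure D2:**
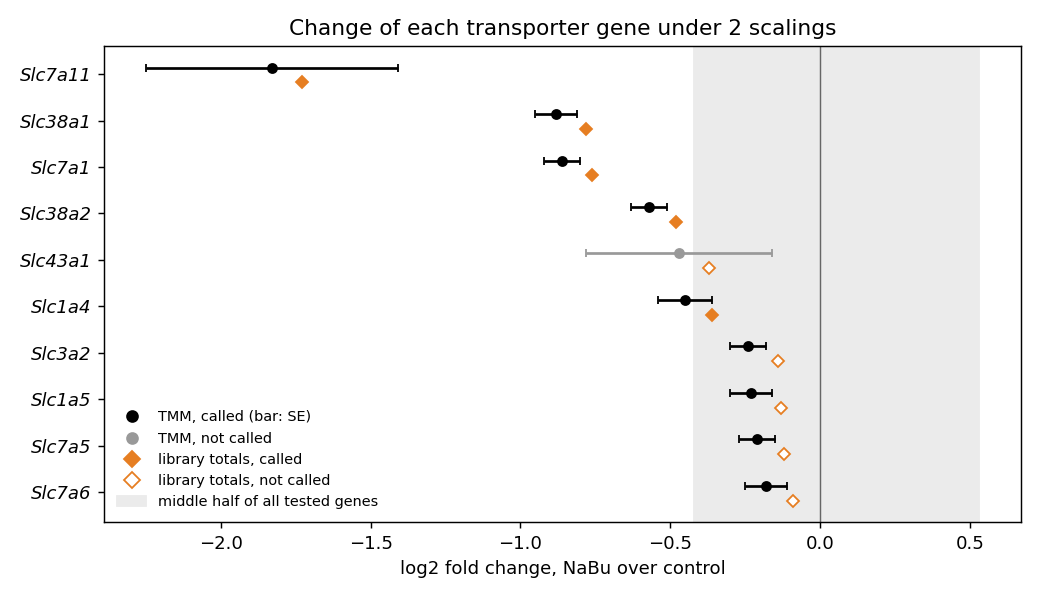
Log2 fold change of NaBu over control for each transporter gene, on the TMM scale with its SE (circles) and on library totals (diamonds), black or filled where called and grey or open where not. The grey band spans the interquartile range of all tested genes on the TMM scale, -0.42 to 0.53. The circles of *Slc7a11*, *Slc38a1*, *Slc7a1*, *Slc38a2*, *Slc43a1* and *Slc1a4* lie to its left. The band does not apply to the diamonds, since the median of all genes was 0.102 on library totals against 0.005 on the TMM scale.

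The sodium-coupled neutral amino acid carriers of system A fell together. *Slc38a1* (chromosome 15, 96571418 to 96643438) encodes SNAT1, a glutamine carrier, and had 23.4 and 24.0 FPKM in NaBu cells, against 39.0 and 42.8 in control cells. Every NaBu value was well below every control value, and the log2 ratio was -0.88 ± 0.07 (SE; edgeR adjusted p = 8.62e-07). *Slc38a2* (chromosome 15, 96687392 to 96699728) encodes SNAT2, known to be induced by amino acid shortage, and had 35.4 and 33.8 FPKM in NaBu cells, against 47.4 and 48.8 in control cells. It fell by a smaller step, at a log2 ratio of -0.57 ± 0.06 (SE; edgeR adjusted p = 1.02e-05). The pair are neighbours on chromosome 15, separated by 43953 bases in which no other gene of the files begins. *Slc38a1* FPKM per *Slc38a2* FPKM was 0.661 and 0.711 in NaBu cells, against 0.822 and 0.875 in control cells, without overlap, and the difference between their changes was not tested. Both calls held in every alternative except that *Slc38a2* was not called when the change had to exceed 1.5-fold (adjusted p = 0.729 with edgeR's glmTreat).

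The SLC1 carriers of system ASC exchange small neutral amino acids. *Slc1a5* (chromosome 7, 16781334 to 16798274), the gene of ASCT2 and a main glutamine carrier of activated T cells, had 113 and 117 FPKM in NaBu cells, against 132 and 120.4 in control cells. The groups lay close, since the higher NaBu library and the lower control differed by less than the controls did from each other. The log2 ratio was -0.23 ± 0.07 (SE; edgeR adjusted p = 0.0109), and the call was lost on library totals (edgeR adjusted p = 0.105), without NaBu 1 (edgeR adjusted p = 0.151) and without NaBu 2 (edgeR adjusted p = 0.0801). *Slc1a4* (chromosome 11, 20302180 to 20332713), the gene of ASCT1, which carries alanine, serine and cysteine, had 4.98 and 4.69 FPKM in NaBu cells, against 6.11 and 6.28 in control cells. It was far less abundant than *Slc1a5* and fell at a log2 ratio of -0.45 ± 0.09 (SE; edgeR adjusted p = 0.00081), a call kept on library totals (-0.36, edgeR adjusted p = 0.00383).

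*Slc43a1* (chromosome 2, 84838855 to 84863586), the gene of LAT3, a facilitator of leucine and other large neutral amino acids, was barely expressed. It had 25 and 17 expected counts in NaBu cells, against 29 and 27 in control cells, or 0.49 and 0.34 FPKM against 0.57 and 0.52. Its log2 fold change of -0.47 ± 0.31 (SE) did not pass (edgeR adjusted p = 0.204), and a change of that size was not detectable at this depth. *Slc43a2*, encoding the related carrier LAT4, was more abundant and fell, to 4.2 and 4.24 FPKM in NaBu cells, against 10.3 and 9.5 in control cells (log2 fold change -1.32 ± 0.07 SE, edgeR adjusted p = 1.05e-07).

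Summed over the 10 genes, FPKM was 439 and 452 in NaBu cells, against 531 and 519 in control cells, a ratio of means of 0.849. On the TMM scale the ratio was 0.793. The fall was unevenly spread over the transport systems. System A held 17% and 16.4% of the FPKM of the 9 carriers (all members but *Slc3a2*) in NaBu cells, against 20.4% and 22.1% in control cells, and system y+, here *Slc7a1*, held 5.41% and 5.55% in NaBu cells, against 7.49% and 8.06% in control cells. System L took a larger share in NaBu cells, at 39.5% and 39.7%, against 36% and 35.7% in control cells, and so did system ASC, at 34.2% and 34.6%, against 32.7% and 30.6% in control cells. As these are shares of a sum, a rise in some follows from a fall in others. No test was run on them, as the smallest two-sided p of an exact permutation test with 2 libraries a group is 0.333.

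**Figure D3:**
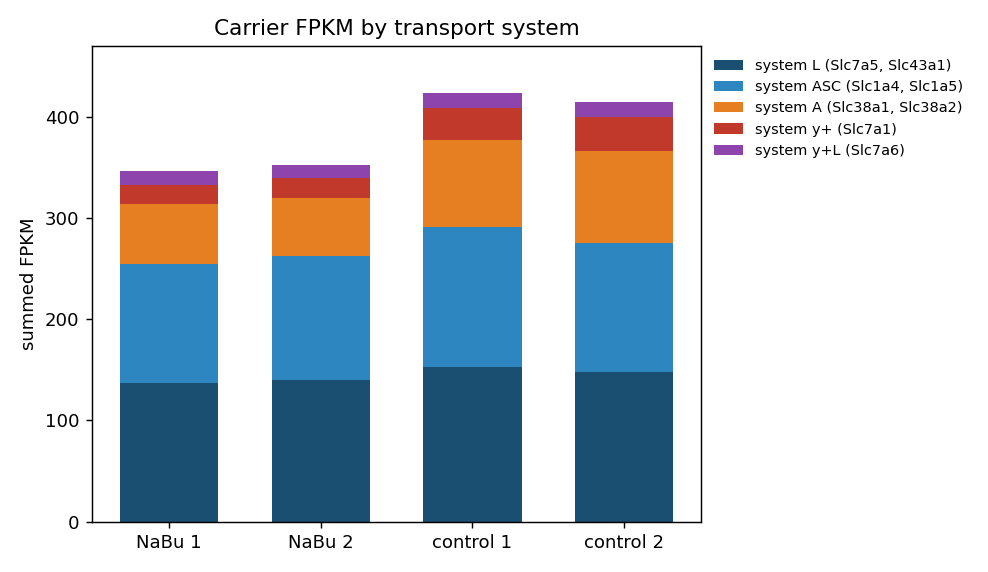
Summed FPKM of the carrier genes by transport system in each library, with NaBu libraries left of controls. The total was 346 and 353 in NaBu and 423 and 414 in control with *Slc7a11* included, which at 0.29 FPKM or less is too small to draw, and the orange block of system A is the one with the largest drop in FPKM, at 58.8 and 57.9 in NaBu against 86.4 and 91.6 in control (ratio 0.655), while by ratio system y+ (0.588) and *Slc7a11* (0.288) were lower still.

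Amino acid carriers outside the 10 were called in both directions, as were all tested genes, 34.5% of them higher and 34.1% lower. Of 34 other surface carriers listed, 24 were in the files and 13 were tested, of which 5 rose and 4 fell; the median log2 ratio was 0.05. The summed FPKM of this list was lower in NaBu cells, at 37.2 and 37.9, against 55.1 and 56.6 in control cells, a ratio of 0.672. Besides *Slc7a3* and *Slc43a2*, the taurine carrier gene *Slc6a6* fell, to 20.4 and 21.0 FPKM in NaBu cells, against 31.7 and 32.3 in control cells. *Slc16a10*, which encodes the aromatic amino acid carrier TAT1, rose, to 6.19 and 6.39 FPKM in NaBu cells, against 3.05 and 3.73 in control cells (log2 fold change 0.81 ± 0.1 SE, edgeR adjusted p = 3.73e-05). The other carriers that rose were below 1.5 FPKM in every library. Of the carriers listed here as endolysosomal, 6 of 13 tested rose and 3 fell. Their summed FPKM was 89.2 and 89.0 in NaBu cells, against 77.7 and 74.1 in control cells. *Slc38a10* gave 32.2 and 32.7 of it in NaBu cells, against 35.41 and 34.05 in control cells. The list is a loose grouping, and where each carrier sits in these cells was not measured. *Mfsd12*, linked to lysosomal cysteine import, rose 2.39-fold, *Slc36a1*, encoding the proton-coupled carrier PAT1, 1.73-fold and *Ctns*, the lysosomal cystine exporter, 1.34-fold, whereas *Slc36a4* fell 1.4-fold, a call lost without NaBu 2 (edgeR adjusted p = 0.0785) or control 2 (edgeR adjusted p = 0.0558). Of the 3 that fell, 1 was called without NaBu 1, and likewise without NaBu 2. The fall of *Slc38a10* (log2 fold change -0.21) was lost on library totals (edgeR adjusted p = 0.111), and the rise of *Slc15a4* (0.23) with DESeq2 (adjusted p = 0.129) and without NaBu 1, NaBu 2 or control 2 (edgeR adjusted p of up to 0.274). Of the mitochondrial carriers, 6 of 10 tested rose and 2 fell. The ornithine carrier gene *Slc25a15* rose 1.67-fold, *Slc25a44*, the branched-chain amino acid carrier, 1.61-fold and the glutamate carrier *Slc25a22* 1.4-fold. Of the aspartate and glutamate exchangers, *Slc25a12* rose 1.25-fold and *Slc25a13* fell 2.33-fold. *Sfxn3*, a serine carrier, fell 1.5-fold.

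**Figure D4:**
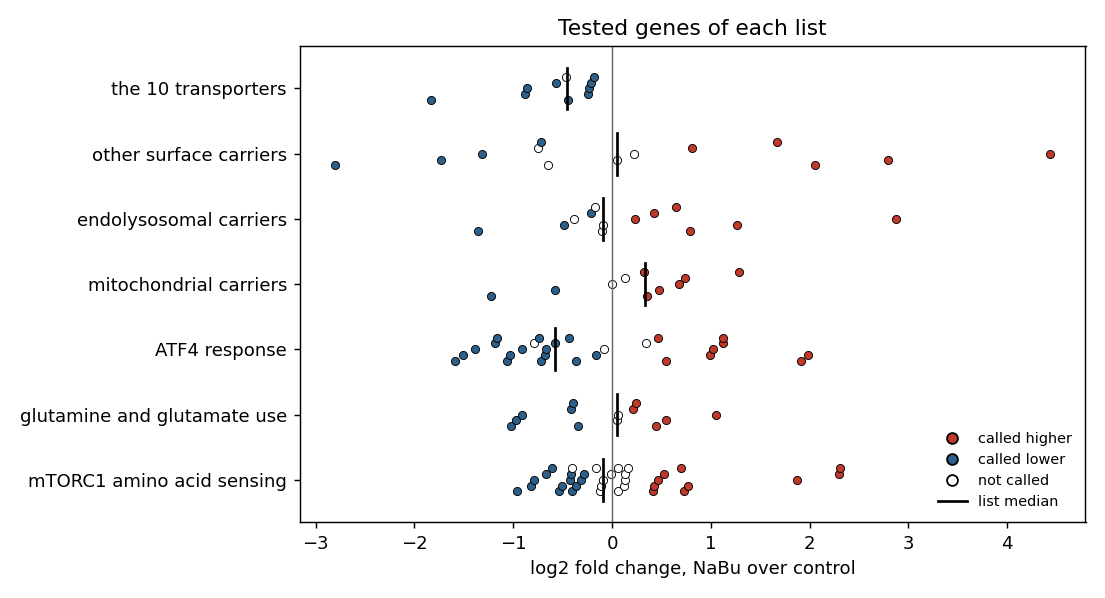
Log2 fold change of NaBu over control for every tested gene of each list, red where called higher, blue where called lower and white where not called, with a bar at the list median. The 10 transporters all lie below 0 with a median of -0.46, while the mitochondrial carriers have a median of 0.33 and the ATF4 response genes a median of -0.58 with members on both sides.

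Genes of the ATF4 response moved both ways, with 8 of 27 tested higher and 16 lower and a median log2 fold change of -0.58. Over all tested genes 34.5% were higher and 34.1% lower. *Atf4* itself fell, to 112 and 108 FPKM in NaBu cells, against 173 and 166 in control cells (log2 fold change -0.72 ± 0.06 SE, edgeR adjusted p = 2.02e-06). The lower genes included amino acid synthesis enzymes. *Asns*, encoding asparagine synthetase, fell 1.88-fold, *Psat1* and *Phgdh* of serine synthesis 2.24-fold and 2.05-fold, *Shmt2* 2.62-fold and *Pck2*, a mitochondrial phosphoenolpyruvate carboxykinase, 3.02-fold. *Stc2* fell 2.84-fold and *Chac1*, which degrades glutathione, 2.27-fold. The higher genes included the stress transcription factors *Atf3* at 3.95-fold and *Cebpb* at 3.77-fold, and *Ddit4*, an inhibitor of mTORC1, at 1.99-fold. The list did not divide by function. The enzyme genes *Pycr1* and *Gpt2* rose 2.03-fold and 1.47-fold, and the transcription factor genes *Atf5* and *Cebpg* fell 1.28-fold and 1.36-fold. *Eif4ebp1*, encoding a translation repressor, fell 1.6-fold.

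Of the known regulators of these carriers, 7 of 12 were higher and 4 lower, beside 34.5% and 34.1% of all tested genes. Fewer were called higher when either NaBu library was left out. The 12 include inhibitors as well as activators, so the counts do not give a direction of regulation, which was not tested. *Myc*, a driver of transporter expression in activated T cells, rose to 182 and 179 FPKM in NaBu cells, against 105 and 93.3 in control cells (log2 fold change 0.77 ± 0.07 SE, edgeR adjusted p = 3.2e-06), while *Mycn* fell 2.75-fold. *Max*, the partner of MYC, and *Hif1a*, the oxygen-sensing factor, each rose 1.79-fold. *Nfe2l2*, encoding NRF2, rose 1.63-fold and *Keap1*, its inhibitor, fell 1.66-fold. *Trp53*, encoding p53, a repressor of *Slc7a11*, fell 3.07-fold.

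Enzymes that use the carried amino acids were called in both directions, as were all tested genes (34.5% higher, 34.1% lower). Of 13 glutamine and glutamate genes, 5 rose and 6 fell, and 3 rose without NaBu 1 and likewise without NaBu 2. *Gpt*, an alanine transaminase gene, rose 2.07-fold and *Gpt2*, its mitochondrial relative, 1.47-fold, and the aspartate transaminase genes *Got1* 1.35-fold and *Got2* 1.18-fold, while *Cad* of pyrimidine synthesis fell 2.03-fold and *Oat*, the ornithine aminotransferase gene, 1.96-fold. Of 13 cystine and glutathione genes, 4 rose and 5 fell, or 3 fell without NaBu 1. *Ggct*, which acts in glutathione turnover, rose 1.99-fold and *Gss*, encoding glutathione synthetase, 1.41-fold, whereas *Gclm*, a subunit of the rate-limiting enzyme, fell 1.43-fold and the glutathione peroxidase genes *Gpx1* 1.44-fold and *Gpx4* 1.22-fold. *Gsr*, encoding glutathione reductase, rose 1.28-fold. Of 10 leucine and methionine genes, 2 rose and 4 fell, with *Bcat1*, the cytosolic branched-chain transaminase, 3.35-fold and *Mtr*, encoding methionine synthase, 2.27-fold lower. *Mat2a*, which makes S-adenosylmethionine, and *Bckdk*, the kinase that inhibits branched-chain keto acid breakdown, each fell 1.24-fold, while *Dbt* and *Bckdha*, subunits of the enzyme it inhibits, rose 1.52-fold and 1.34-fold. The *Got2*, *Gpx4* and *Bckdk* calls were lost without NaBu 1, that of *Got2* also without NaBu 2.

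Sensors that link amino acids to mTORC1, the growth kinase complex, were called in both directions, as all tested genes were. Of 35 tested, 10 were higher and 13 lower, or 13 and 13 on library totals. Over all tested genes 34.5% were higher and 34.1% lower on the TMM scale. *Gatsl3*, now called *Castor1*, encodes an arginine sensor that restrains mTORC1 and rose to 56.0 and 55.2 FPKM in NaBu cells, against 10.8 and 10.1 in control cells, a log2 ratio of 2.31 ± 0.08 (SE; edgeR adjusted p = 4.14e-09). Its relative *Gatsl2* (*Castor2*) rose 3.67-fold and *Nprl2*, of the inhibitory GATOR1 complex, 1.7-fold. *Mlst8*, an mTOR complex subunit, fell 1.95-fold, *Kptn* 1.76-fold and *Lamtor4*, a subunit of the lysosomal Ragulator, 1.73-fold. These genes were named by size of change, so they do not give a direction of mTORC1 activity, which was not measured.

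The libraries were of similar depth, with 19859649 and 19857701 expected counts in NaBu and 20344399 and 20548571 in control, and libraries of a group differed by more than counting noise. All 9 CD8 T cell markers listed were present, and as a list they were lower too, with 7 called lower, 1 higher and a median log2 ratio of -0.5, beside the transporters' -0.46. Their summed FPKM was 1739 and 1747 in NaBu cells, against 1958 and 1880 in control cells, with *Cd8a* at 93.9 and 97.0 FPKM in NaBu cells, against 118 and 116 in control cells. The marker called higher was *Cd3g*, at 556.7 and 554.5 FPKM in NaBu cells, against 407.01 and 374.69 in control cells. *Cd5*, at 21.97 and 22.24 against 21.97 and 22.2, was not called. In bulk RNA, fewer cells of a type and less RNA per cell cannot be told apart. Among 15 markers of myeloid and dendritic cells, 9 were in the files and 6 tested, of which 4 rose and 1 fell, and the summed FPKM was 54.4 and 52.9 in NaBu cells, against 31.0 and 31.5 in control cells, with *Adgre1* at 0.02 or less in every library. The myeloid markers called higher were *Itgam*, at 4.83 and 3.79 FPKM in NaBu cells, against 0.45 in each control, *Mpeg1*, at 1.96 and 1.86 against 0.2 and 0.39, *Cd68*, at 28.4 and 27.1 against 11.4 and 9.59, and *Itgax*, at 4.24 and 4.66 against 2.24 and 2.42. *Xcr1*, at 0.87 and 0.73 against 2.09 and 1.94, was called lower. *Fcer1g*, at 13.92 and 14.45 against 14.41 and 16.49, was not called. *Cd14* and *Flt3* had 0.21 FPKM or less in every library and were not tested. The listed *Lyz2*, *Csf1r*, *Clec9a*, *Cd209a*, *S100a8* and *S100a9* were not found. *Cd4* was at 0.66 and 0.65 FPKM in NaBu cells, against 0.02 and 0.03 in control cells, and of 4 erythroid markers in the files the single tested, *Hba-a1*, was at 6.59 and 7.24 FPKM in NaBu cells, against 1.0 and 0.81 in control cells. *Hbb-bs* went the other way, at 0 in each NaBu library, against 0.16 and 0.48 in control cells, and *Hbb-bt* and *Alas2* overlapped at 0.18 FPKM or less. B cell, natural killer and stromal cell markers summed to 2.62 and 1.96, 4.94 and 5.62, and 21.9 and 20.9 FPKM in NaBu cells, against 5.77 and 4.13, 10.7 and 9.55, and 23.1 and 24.4 in control cells. Most of the stromal sum was *Pecam1*, which fell. *Cdh5* of the same list had 0.01 FPKM or less in every library, so the sum was not read as a measure of stromal cells. In that list *Col1a1*, at 0.54 FPKM in each NaBu library, against 0.04 and 0.11 in control cells, and *Epcam*, at 4.32 and 3.91 against 2.12 and 2.24, rose. The part of such cells in the transporter values was not tested.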

How the data were processed

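The 2 NaBu and 2 control RNA-seq libraries of OT-I CD8+ T cells were grouped by their titles. The tools used were Bowtie2 and RSEM, with the mm10 genome, per the submitters' processing notes; their versions were not given there, nor was the use of strand. The authors' expected counts per gene are not normalized and were rounded to whole numbers for testing. The authors' FPKM values, per the file headers, were used as deposited for levels, and the deposited series table holds the same values. The deposited gene lengths, in bases, were used for the per-length alternative only. A gene absent from a library's file was set to 0. Coordinates and promoters came from RefSeq tables of GRCm38.p6.

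Testing used edgeR 4.0.16 (R 4.3.3). TMM factors were 1.035 and 1.0335 in NaBu and 0.968 and 0.9658 in control. The filterByExpr rule kept 12943 genes holding 99.95% of counts, and NaBu was tested against control by quasi-likelihood, without covariates. The Benjamini-Hochberg adjustment covered all tested genes, with calls at 0.05; the SE comes from the fold change and F. The procedure was checked on simulated data in which few genes changed, in random directions. That check does not cover the choice of scaling in data where 68.6% of tested genes were called.

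The members and gene lists were chosen with earlier results of these data known. Named outside the members were up to 6 called genes per list, by size of change, that reached 5 FPKM in the mean of either group and whose groups did not overlap, listed genes at 100 FPKM or more, and *Myc*, *Atf4*, *Nfe2l2* and the light chains. *Arg1*, *Arg2*, *Nos2*, *Pycr1*, *Atf5*, *Cebpg* and the cell markers named were chosen after their values were seen. The alternatives were other scalings (median-of-ratios factors, library totals), other filters (none, 5 CPM in 2 libraries), DESeq2 1.42.0, limma-voom and limma 3.58.1 on log2(FPKM + 1) and log2(FPKM + 0.1), glmTreat, the replicate number as a block, leaving out each library, and, chosen after seeing the data, removal of the trend on transcript GC content.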

Additional observations from a re-analysis of the deposited data

How the results depend on the processing

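No value changed direction under any alternative. The 9 calls among the transporters became 5 on library totals, 4 with limma on log2(FPKM + 1) with or without its filter and on log2(FPKM + 0.1), and 3 with glmTreat against a fold change of 1.5, and ranged from 5 to 9 when a library was left out, where a lone library is assumed to vary like the other group's. On library totals the log2 fold change was -0.12 for *Slc7a5*, -0.14 for *Slc3a2*, -0.09 for *Slc7a6* and -0.13 for *Slc1a5*, none past the test. With limma on log2(FPKM + 1) with or without the filter it was -0.12, -0.15, -0.08 and -0.13 for these 4, and on log2(FPKM + 0.1) -0.12, -0.15, -0.09 and -0.13, again not past the test; *Slc7a11* gave -0.23 with the unfiltered fit and was removed, with *Slc43a1*, by the FPKM filter and by that of 5 CPM. Against the 1.5-fold null *Slc7a5* (-0.21), *Slc3a2* (-0.24), *Slc7a6* (-0.18), *Slc1a4* (-0.45), *Slc1a5* (-0.23) and *Slc38a2* (-0.57) did not pass. *Slc7a6* also missed the test at 5 CPM (-0.13), with DESeq2 (-0.18) and with the replicate block (-0.18, edgeR adjusted p = 0.0507). Leaving out each library gave from -0.24 to -0.2 for *Slc7a5*, -0.29 to -0.2 for *Slc3a2*, -0.21 to -0.17 for *Slc7a6* and -0.3 to -0.16 for *Slc1a5*. The 4471 genes called higher and 4413 called lower over the whole table became 2214 and 1565 with glmTreat, and the 52 and 55 other listed genes 27 and 26. On library totals 5175 genes were higher and 3720 lower. With limma 3449 of 11339 tested genes were lower on log2(FPKM + 1) and 3312 of 11339 on log2(FPKM + 0.1). Without the filter 3288 of 17559 were lower on log2(FPKM + 1). With the GC trend removed the 9 calls were kept. The summed FPKM ratio of 0.849 was 0.793 on the TMM scale. The fits on library totals and on FPKM used no TMM factors, which were 1.035 and 1.0335 in NaBu and 0.968 and 0.9658 in control. The glmTreat test asks for a larger change. Other causes of these differences were not tested. Libraries with the same number did not deviate together (correlation of -0.09 over 10082 genes). This cannot show whether the numbers pair the samples, since a shared origin need not leave a shared deviation and the labels do not say. The replicate block left 4468 genes higher, 4385 lower and 8 members lower. Depth limits *Slc7a11* and *Slc43a1*, with at most 55.92 counts in a library.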
